A study of Mus musculus with 12 samples.

Results

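The comparison followed mouse 3T3-L1 pre-adipocytes over time while they shared medium with RAW264.7 macrophages, setting 4 arrays at 48 h of co-culture against 4 arrays at 6 h, to ask which genes moved with time beside the macrophages. These 8 arrays are 8 of the 12 in the study, which also profiled 24 h. The rule took the red (Cy5) channel of every array whose title ends in 6h or 48h, and paired arrays by treatment. 3T3-L1 (3T3L-1 in the labels) is a fibroblast line from mouse embryos that can be turned into adipocytes, and RAW264.7 (Raw264.7 in the labels) is a mouse macrophage line that sat above it in a porous insert. RNA came from the 3T3-L1 cells of the lower well. At each time the cultures were untreated (NT), or hormones were added: serotonin at 100 µM (S), cortisol at 100 µM (C), or the 2 together at 100 µM (CS), and the green (Cy3) channel of the same array held 3T3-L1 cells grown alone under the same treatment for the same time. The medium, with its hormones, was renewed at 24 h. There was 1 array for each treatment and time, so the 4 treatments stood in for replicates and p-values measure the spread between these arrays.

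Pre-adipocytes are committed fibroblasts, and they answer macrophage products through NF-kB, AP-1 and JAK-STAT signalling. Fos and Jun proteins pair to form AP-1, which binds short DNA sites in protease and cytokine genes, and the Fos gene itself is usually switched on for a short time after a stimulus. Sterol synthesis is driven by SREBP-2, a factor that is released from the endoplasmic reticulum when cell cholesterol is low. TGF-beta and BMP signals act through SMAD proteins, which raise their own inhibitors Smad6 and Smad7 as well as Ccn2 and the Id genes.

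Values below are log2 Cy5 signals after quantile normalization over the 8 arrays, given in the order untreated, serotonin, cortisol and both hormones. A log2 difference is 48 h minus 6 h ± SE over the 4 matched pairs, and adjusted p is limma's moderated test with Benjamini-Hochberg adjustment over 12724 genes. A gene was called, and is said to rise or fall, when its adjusted p was under 0.05 and it changed 1.5-fold or more. In Cy5, 21032 to 22604 probes per array were well above background at 6 h and 19912 to 20599 at 48 h, so fewer were detected at 48 h. The median raw spot signal was also lower at 48 h, at 71 to 80 units against 113.5 to 265.5 at 6 h. Across genes, arrays of the same time correlated at 0.977 to 0.994 at 6 h and 0.982 to 0.991 at 48 h, and arrays of different times at 0.945 to 0.968. The untreated 6 h array stood apart: its median raw spot signal was 265.5 units against 113.5 to 122 on the other 6 h arrays, and the change of the untreated pair correlated with those of the other pairs at 0.596 to 0.704, against 0.775 to 0.815 among the others. The 6 h arrays shared one slide and the 48 h arrays another, and a slide effect therefore cannot be told apart from a change over time. The cortisol labels were checked on known target genes. Fkbp5, Tsc22d3 and Zbtb16 were each higher on all 4 arrays with cortisol than on all 4 without it, while Per1 overlapped.

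Between 6 h and 48 h, 2182 genes rose (17.1% of those tested) and 2362 fell (18.6%) in co-cultured cells. These counts, and those of the lists below, include genes that were well above background at 6 h only or at 48 h only. There were 98 of them (22 rises and 76 falls), and only a bound on their change can be given. Of the 4544 genes called, 4318 went the same way in 4 of 4 pairs. The calls were made on these same pairs, so this agreement is no further evidence for them. Of all genes tested, 437 lacked a complete pair and could not reach 4 of 4. In the cells grown alone on the same arrays, 1125 genes rose (8.84%) and 1114 fell (8.76%). The genes tested were chosen by their Cy5 signal, so genes detected only in cells alone are left out. The counts of both cultures are therefore not on an equal footing. Of the genes called in co-culture, 1145 were called in the same direction in cells alone, 119 in the opposite direction and 3280 were not called there. The test of the difference between both time courses, in which an effect shared by both channels of a slide cancels, called 2032 genes higher in co-culture (16%) and 2147 lower (16.9%). It called 2541 of the 4544 genes in the direction of their change. The balance of directions depended on the scaling: 48.0% of the calls were rises after quantile normalization, 58.0% after scaling to the 75th percentile (2920 and 2111 genes) and 68.2% after median centring (2612 and 1219), which put the median of all genes at -0.03, 0.09 and 0.19. Changes below are therefore relative to the bulk of genes on each array. Of the genes tested, 6693 (52.6%) had 6 h and 48 h values that did not overlap, so a lack of overlap alone was the usual case. Counts of list members below are to be read beside the shares of all genes. These were 17.1% rising and 18.6% falling in co-culture, and 8.84% and 8.76% in cells alone. For the difference between time courses they were 16% higher and 16.9% lower.

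**Figure D1:**
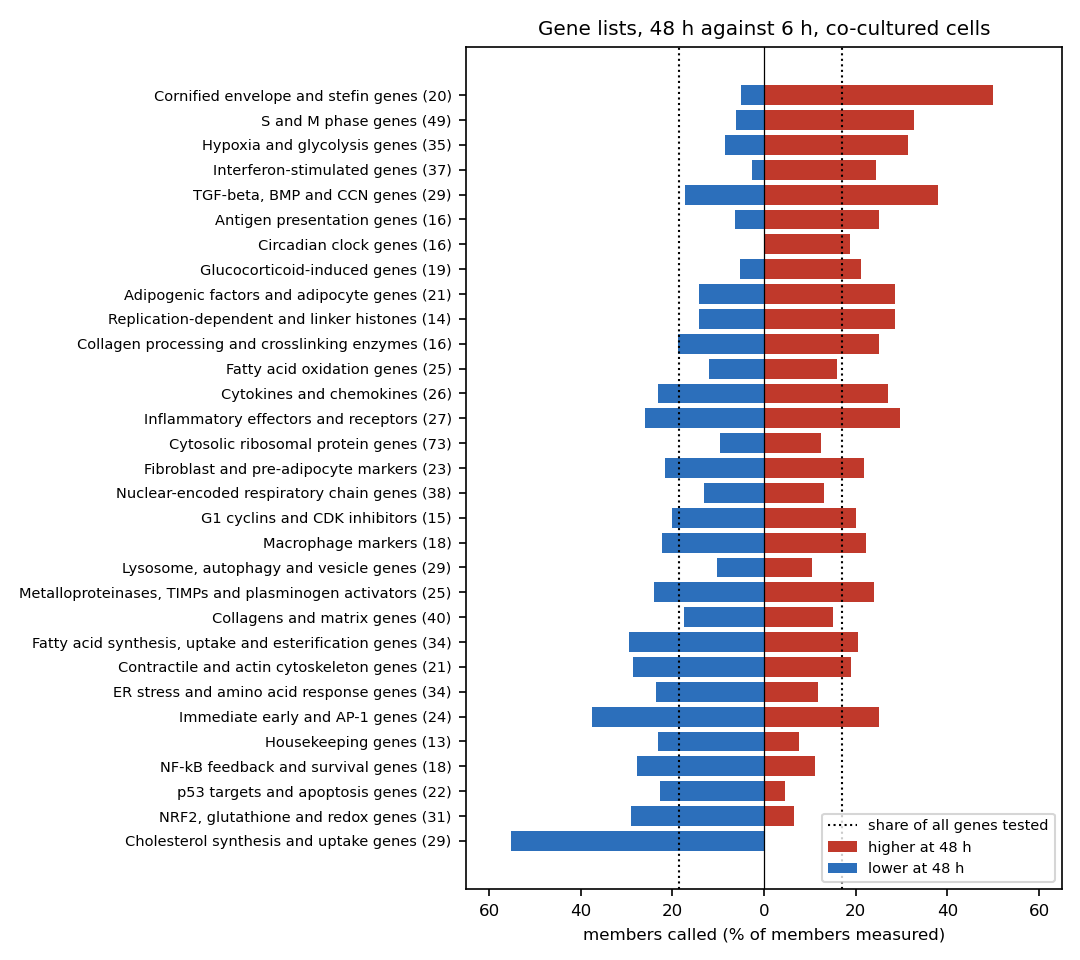
Share of the measured members of the gene lists with more than 10 measured members (number in brackets) that rose, to the right, or fell, to the left, between 6 h and 48 h in co-cultured cells, in percent of members. The dotted lines mark the shares over all genes tested, 17.1% and 18.6%. Cholesterol genes reach furthest to the left, and cornified envelope and stefin genes furthest to the right.

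The genes that rose furthest included Tmprss11f, a membrane-bound serine protease (chr5:86521226-86632424, GRCm38.p6), which lay at 3.32, 5.13, 5.86 and 5.93 at 6 h and 8.90, 8.96, 8.90 and 8.89 at 48 h. All 4 arrays at 48 h stood close together, while the 6 h arrays were dim and the untreated one was well below the rest. It was well above background on 3 of 4 arrays at 6 h, and its log2 difference was 3.86 ± 0.43 (SE, n = 4 pairs, adjusted p = 3.33e-04). Ppfia4, a liprin scaffold protein, was at 6.63, 6.55, 6.67 and 6.17 at 6 h and 9.77, 10.46, 9.89 and 10.34 at 48 h. The groups were far apart and the difference was 3.61 ± 0.20 (SE, n = 4 pairs, adjusted p = 6.84e-05). Other genes named for large rises included Tigd3 (3.57), which derives from a transposase, and Taf8 (3.35), a subunit of the general transcription factor TFIID. The SH2 adaptor Grb7 (3.25), the sodium-calcium exchanger Slc8a2 (3.1) and the transcriptional repressor Zbtb32 (3.03) were named too. Agreement of 4 of 4 pairs was a condition for being named here, so it is no further evidence. Grb7 and Slc8a2 were well above background on 2 of 4 arrays at 6 h. Mansc1 and the growth factor Fgf9 were not well above background on any array of 6 h, so only a bound can be given. Mansc1 was at least 6.48-fold higher at 48 h, and Fgf9 at least 3.27-fold. Both were well above background at 48 h alone, so no p-value is given with such a bound.

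Mettl21c, a lysine methyltransferase best known from muscle, went opposite ways in co-culture and alone. It lay at 3.25, 4.60, 4.72 and 4.26 at 6 h and 7.68, 7.05, 7.37 and 7.94 at 48 h, a difference of 3.30 ± 0.38 (SE, n = 4 pairs, adjusted p = 3.97e-04). In cells alone it was not well above background on any array of 48 h and was at least 1.35-fold higher at 6 h, so the size of the fall there, and of the difference between the time courses, is not given.

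The genes that fell furthest were led by Fos, described below with the other immediate early genes. Myoz3, a protein of the muscle Z-disc, was at 9.65, 8.94, 8.38 and 7.69 at 6 h and 5.30, 4.57, 4.76 and 4.87 at 48 h and fell by 3.79 ± 0.30 (SE, n = 4 pairs, adjusted p = 1.09e-04), with a change of -4.01 in cells alone. At 48 h it was well above background on 1 of 4 arrays in either culture. A second probe of Myoz3 rose by 1.91, so the direction of this gene depends on the probe. Aspn, which encodes the matrix proteoglycan asporin, lay at 7.74, 7.56, 8.19 and 7.98 at 6 h and 4.28, 4.24, 5.49 and 5.97 at 48 h. The 6 h arrays were all higher than the 48 h arrays, and the difference was -2.87 ± 0.29 (SE, n = 4 pairs, adjusted p = 2.50e-04). Fgd6, an exchange factor for the GTPase Cdc42 (-3.02), and the zinc finger gene Zfp712 (-2.63) fell too. Tnfaip8l1 fell by 2.63, which rested in part on the 48 h array with both hormones at 2.82 against 7.82 to 8.44 on the other 48 h arrays. Cells alone were also low on that array, at 2.86 against 9.98 to 10.07 on the other 48 h arrays. Without that pair the difference of Tnfaip8l1 in co-culture was -1.24 (adjusted p = 9.64e-04). Without the serotonin pair Tnfaip8l1 was not called (adjusted p = 0.0628). Pank1, which starts coenzyme A synthesis, was not well above background at 48 h and was at least 9.46-fold higher at 6 h. The same kind of bound was 3.44-fold for the receptor gene Mrgpra2b, 1.68-fold for Iqcf4 and 1.42-fold for the Src family kinase Fgr, all higher at 6 h.

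Immediate early and AP-1 genes split into a set that fell and a set that rose. Of 24 members measured, 9 fell and 6 rose, with a median difference of -0.16, against 18.6% and 17.1% of all genes. Fos lay at 13.16, 13.58, 14.12 and 12.90 at 6 h and 9.65, 9.58, 9.41 and 9.80 at 48 h. Every 48 h array was more than 3 log2 units below every 6 h array, and the difference was -3.83 ± 0.24 (SE, n = 4 pairs, adjusted p = 6.84e-05), or 14.2-fold. In cells grown alone Fos was at a mean of 11.08 at 6 h and 11.17 at 48 h, a difference of 0.09 that was not called, and the difference between the time courses was -3.92 ± 0.53 (SE, adjusted p = 0.00169). Fosb, its close relative, lay at 11.03, 11.08, 11.34 and 10.22 at 6 h and 7.66, 7.35, 7.46 and 6.87 at 48 h and fell by 3.58 ± 0.13 (SE, n = 4 pairs, adjusted p = 6.22e-05). Fosb also fell in cells alone (-1.37).

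The growth response gene Egr1 was at 13.30, 13.33, 13.60 and 12.98 at 6 h and 12.16, 11.59, 11.07 and 11.49 at 48 h and fell by 1.73 ± 0.21 (SE, n = 4 pairs, adjusted p = 4.38e-04). It differed by -0.01 in cells alone, which was not called. Klf4 and Klf2, zinc finger factors of the Krüppel family, fell (log2 differences of -1.52 and -1.69), and Klf4 rose in cells alone by 0.85. Further falls were those of Btg2 (-1.09), an anti-proliferative gene, Ier2 (-1.02), Klf6 (-0.83) and Dusp6 (-0.73), a phosphatase that turns off ERK. Klf4, Klf2, Egr1, Btg2, Ier2 and Klf6 were each also called lower in the difference between time courses.

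In contrast, Fosl1, which encodes the Fos-family protein Fra-1, lay at 10.22, 10.57, 10.75 and 10.63 at 6 h and 11.89, 11.70, 11.75 and 11.58 at 48 h and rose by 1.19 ± 0.13 (SE, n = 4 pairs, adjusted p = 3.56e-04). It rose in cells alone too, by 0.83, and the difference between the time courses was not called. Fosl2, the gene of Fra-2, rose by 0.71 with the probe used here and differed by 0.05 with its second probe. Klf10, a TGF-beta inducible factor, rose by 1.31 ± 0.08 (SE, n = 4 pairs, adjusted p = 6.84e-05), Ier3 by 1.23, the serum response factor Srf by 0.96 and Maff by 0.62. Jun was at 14.89, 14.73, 14.32 and 14.16 at 6 h and 14.37, 14.43, 14.64 and 14.63 at 48 h. Its groups overlapped and the difference was -0.01 ± 0.17 (SE, n = 4 pairs, adjusted p = 0.968). Junb (0.29), Atf3 (0.01) and Myc (-0.21) were not called. Without the untreated pair Junb was at 0.64 and was called (adjusted p = 0.0229), and the list then held 6 rises and 9 falls, as before.

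**Figure D2:**
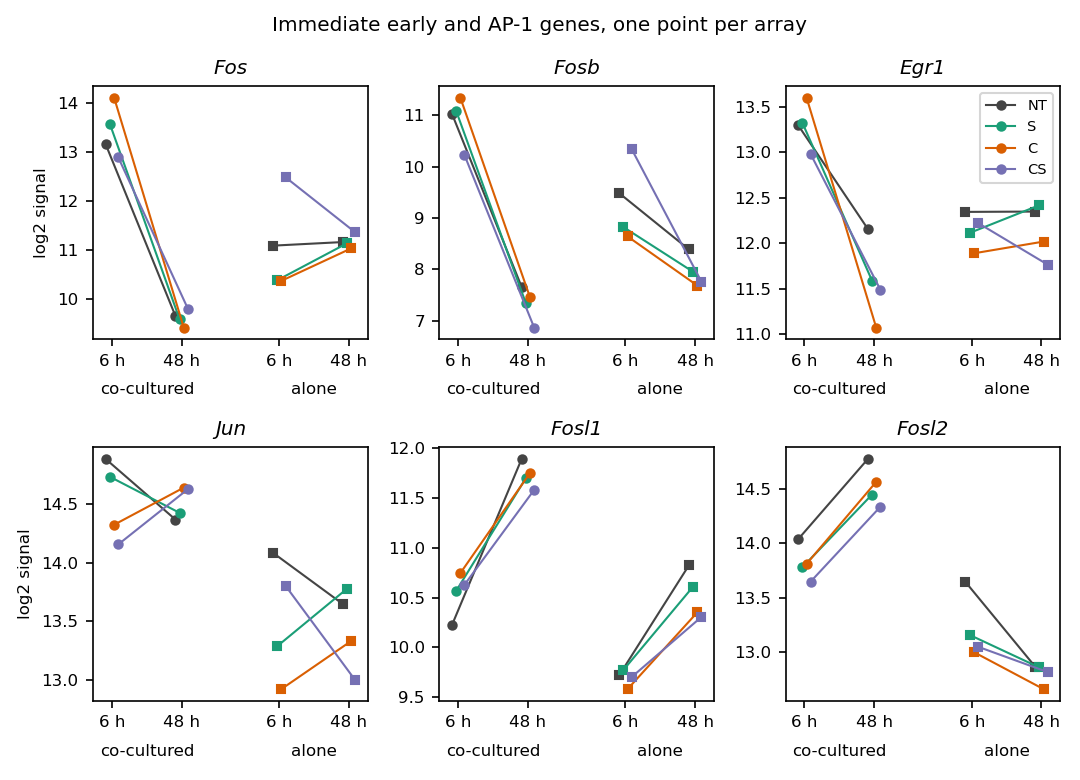
Log2 signal of immediate early and AP-1 genes at 6 h and 48 h, with 1 point for each array and lines joining the arrays of a treatment, in co-cultured cells (left of each panel) and cells grown alone (right). Fos runs from 14.12 at its highest 6 h array to 9.41 at its lowest 48 h array in co-culture, while its means alone are 11.08 and 11.17.

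Proteases of the matrix, several of which are textbook AP-1 targets, also split by family. Of 25 metalloproteinase, inhibitor and plasminogen genes measured, 6 fell and 6 rose (24% each way), against 18.6% and 17.1% of all genes. The stretches of 250 bases before the start of 4 of these genes are shown here in GRCm38.p6 (RefSeq) because they hold an AP-1 site, TGANTCA on either strand, whose letters are in capitals.
Mmp3 (chr9:7445572-7445821, + strand): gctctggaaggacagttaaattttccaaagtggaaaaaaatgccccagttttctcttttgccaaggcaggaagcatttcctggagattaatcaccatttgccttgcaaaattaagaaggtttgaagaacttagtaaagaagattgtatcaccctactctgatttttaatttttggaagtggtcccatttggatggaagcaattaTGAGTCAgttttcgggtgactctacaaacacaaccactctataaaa
Mmp10 (chr9:7502092-7502341, + strand): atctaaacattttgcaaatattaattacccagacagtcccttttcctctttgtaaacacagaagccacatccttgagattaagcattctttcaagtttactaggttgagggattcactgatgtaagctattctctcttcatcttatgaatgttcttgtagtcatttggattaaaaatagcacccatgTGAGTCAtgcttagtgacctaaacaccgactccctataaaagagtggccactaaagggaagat
Mmp13 (chr9:7272264-7272513, + strand): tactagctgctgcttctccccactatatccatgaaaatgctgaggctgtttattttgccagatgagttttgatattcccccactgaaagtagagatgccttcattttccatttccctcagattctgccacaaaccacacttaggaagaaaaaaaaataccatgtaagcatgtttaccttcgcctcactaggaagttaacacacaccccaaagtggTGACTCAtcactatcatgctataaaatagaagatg
Plaur (chr7:24462233-24462482, + strand): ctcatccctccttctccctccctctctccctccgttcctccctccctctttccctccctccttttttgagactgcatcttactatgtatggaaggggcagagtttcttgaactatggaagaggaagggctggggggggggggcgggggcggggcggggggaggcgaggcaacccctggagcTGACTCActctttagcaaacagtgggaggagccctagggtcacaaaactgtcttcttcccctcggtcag
The site lies 46 bases before the start in Mmp3, 63 in Mmp10, 35 in Mmp13 and 69 in Plaur, counted from its first base to the start. Over all 32851 promoters of that length, 6.75% held such a site. In the list it was present in 4 of the 6 genes that fell (Mmp3, Mmp10, Mmp12 and Mmp13), in 2 of the 3 risers with a promoter (Plaur and Serpinb2), and in 0 of 8 that were not called. Mmp12 is counted as a fall here, although only a bound can be given for it. A match of letters does not show that a factor binds there.

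Mmp10, stromelysin-2, was at 13.01, 12.93, 11.20 and 11.61 at 6 h and 10.30, 10.29, 7.33 and 7.15 at 48 h and fell by 3.42 ± 0.30 (SE, n = 4 pairs, adjusted p = 1.59e-04). It also fell in cells alone (-2.88), and the difference between time courses was not called (adjusted p = 0.134). Mmp3, stromelysin-1, lay at 16.01, 16.12, 16.03 and 15.92 at 6 h and 14.91, 15.41, 14.30 and 14.62 at 48 h. All 48 h arrays were below all 6 h arrays, with a difference of -1.21 ± 0.15 (SE, n = 4 pairs, adjusted p = 4.77e-04), while in cells alone the difference was 0.43 and not called. Mmp13, the main rodent collagenase, was at 13.24, 13.09, 12.93 and 13.01 at 6 h and 11.89, 12.93, 10.84 and 11.33 at 48 h and fell by 1.32 ± 0.28 (SE, n = 4 pairs, adjusted p = 0.00563). It rose in cells alone by 1.22, and the difference between the time courses was -2.54 ± 0.23 (SE, adjusted p = 5.49e-04). Macrophage elastase Mmp12 was not well above background on any 48 h array and was at least 2.11-fold higher at 6 h. The membrane-type enzyme Mmp14 (-0.82) and the collagen-degrading cathepsin Ctsk (-0.65) fell. Median centring of the arrays put Mmp3 at -0.59, which was not called. The gelatinase Mmp9 (-0.15) and the inhibitor Timp1 (0.12) were not called.

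The plasminogen system moved the other way. Plau, the urokinase that cuts plasminogen, lay at 4.54, 5.87, 4.68 and 4.34 at 6 h and 7.66, 6.99, 5.47 and 5.25 at 48 h and rose by 1.49 ± 0.44 (SE, n = 4 pairs, adjusted p = 0.0235). The untreated pair moved furthest and the groups overlapped, since serotonin at 6 h lay above cortisol and both hormones at 48 h. Without the untreated pair the difference was 0.94 (adjusted p = 0.00999). It was not called without the serotonin pair (adjusted p = 0.0682), with normexp background correction (0.58, adjusted p = 0.0768) or without the filter on dim probes (adjusted p = 0.0818). Its receptor Plaur was at 13.16, 13.27, 12.51 and 12.52 at 6 h and 14.03, 14.11, 13.80 and 13.63 at 48 h, a rise of 1.03 ± 0.10 (SE, n = 4 pairs, adjusted p = 1.98e-04). The tissue activator Plat rose by 1.32 ± 0.10 (SE, n = 4 pairs, adjusted p = 8.85e-05) and Serpinb2, the type 2 inhibitor of urokinase, by 1.39 ± 0.13 (SE, n = 4 pairs, adjusted p = 1.94e-04). Neither Plaur, Plat nor Serpinb2 was called in cells alone, and all 3 were called in the difference. Timp3 rose by 0.97 and Adamts4, an aggrecanase, by 0.78.

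Cholesterol genes fell at many steps of the pathway and were not called at the others. Of 29 genes of sterol synthesis, uptake and control measured, 16 fell and 0 rose, with a median difference of -0.71, while in cells alone 5 fell and 1 rose with a median of -0.45. The difference between time courses was called lower for 10 members and higher for 2. Cyp51, the lanosterol demethylase, was at 9.65, 9.70, 10.10 and 10.05 at 6 h and 7.50, 7.49, 7.44 and 7.37 at 48 h. The 2 groups were separated by more than 1 unit, and the difference was -2.42 ± 0.14 (SE, n = 4 pairs, adjusted p = 6.84e-05), against -0.90 in cells alone. Mvd, which makes isopentenyl diphosphate from mevalonate diphosphate, lay at 9.68, 9.39, 9.61 and 9.74 at 6 h and 7.44, 7.69, 7.29 and 7.59 at 48 h. It fell by 2.10 ± 0.14 (SE, n = 4 pairs, adjusted p = 7.70e-05). Nsdhl, a sterol dehydrogenase, was at 9.48, 9.50, 9.69 and 9.79 at 6 h and 7.44, 7.69, 7.41 and 7.59 at 48 h and fell by 2.09 ± 0.13 (SE, n = 4 pairs, adjusted p = 6.84e-05). Its second probe was at -0.97 and was not called. Msmo1, the sterol C4 oxidase, was at 16.24, 15.83, 16.14 and 16.03 at 6 h and 13.90, 14.34, 14.18 and 14.33 at 48 h, a difference of -1.87 ± 0.13 (SE, n = 4 pairs, adjusted p = 7.94e-05).

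At the head of the pathway, the synthase Hmgcs1 lay at 14.29, 14.21, 14.54 and 14.46 at 6 h and 13.24, 13.51, 13.31 and 13.40 at 48 h and fell by 1.01 ± 0.10 (SE, n = 4 pairs, adjusted p = 2.05e-04). The middle steps Idi1 (-1.36), Fdps (-1.03) and Fdft1 (-1.17) and the late steps Hsd17b7 (-0.96), Sc5d (-0.71) and Dhcr7 (-1.53) also fell, as did Insig1 (-1.15), which holds SREBP in the endoplasmic reticulum, the sterol carrier Stard4 (-1.09) and the exporter Abcg1 (-0.75). Sqle, the squalene epoxidase, was at 13.68, 14.24, 14.09 and 14.47 at 6 h and 14.59, 14.70, 14.51 and 14.57 at 48 h. Its difference was 0.47 ± 0.12 (SE, n = 4 pairs, adjusted p = 0.0146), which is under 1.5-fold and was not called. Further steps that were not called were Mvk (-0.44), Pmvk (-0.38), Lss (-0.47), Tm7sf2 (-0.45) and Ebp (-0.02), and Acat2, which makes acetoacetyl-CoA, was at 1.39 with an adjusted p of 0.0602. Without the untreated pair the list held 14 falls and 1 rise, and under median centring, which ended the call of Hmgcs1 (-0.63), 11 and 2.

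The promoters of Hmgcs1, Cyp51 and Nsdhl are printed because Hmgcs1 carries the textbook sterol response and the other 2 belong to the genes that fell furthest. Capitals mark the core CACCCCAC and the CCAAT box, on either strand, where a box on the other strand reads ATTGG.
Hmgcs1 (chr13:119690101-119690350, + strand): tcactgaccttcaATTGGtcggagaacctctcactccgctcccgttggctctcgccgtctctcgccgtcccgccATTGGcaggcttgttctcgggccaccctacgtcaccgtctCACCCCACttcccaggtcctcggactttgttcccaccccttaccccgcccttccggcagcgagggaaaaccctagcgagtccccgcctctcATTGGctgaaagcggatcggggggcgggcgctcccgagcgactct
Cyp51 (chr5:4104698-4104947, - strand): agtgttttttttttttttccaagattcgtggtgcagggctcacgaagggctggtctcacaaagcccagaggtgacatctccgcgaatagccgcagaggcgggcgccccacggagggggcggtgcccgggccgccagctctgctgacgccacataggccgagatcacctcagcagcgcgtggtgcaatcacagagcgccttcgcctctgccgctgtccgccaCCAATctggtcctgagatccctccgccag
Nsdhl (chrX:72918271-72918520, + strand): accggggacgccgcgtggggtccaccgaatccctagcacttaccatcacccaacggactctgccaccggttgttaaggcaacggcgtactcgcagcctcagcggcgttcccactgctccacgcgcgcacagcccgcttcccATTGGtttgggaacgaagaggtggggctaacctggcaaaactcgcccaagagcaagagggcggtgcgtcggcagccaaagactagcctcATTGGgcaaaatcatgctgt
The core letters occurred in 1 of the 10 genes of the list that fell and had a promoter (Hmgcs1) and in 1 of 11 that were not called, against 2.58% of all promoters. The CCAAT box occurred in 10 of those 10 and in 7 of the 11, against 33.8% of all promoters. The core is one spelling of a site that varies, so a missing match says only that these letters are not in these 250 bases.

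**Figure D3:**
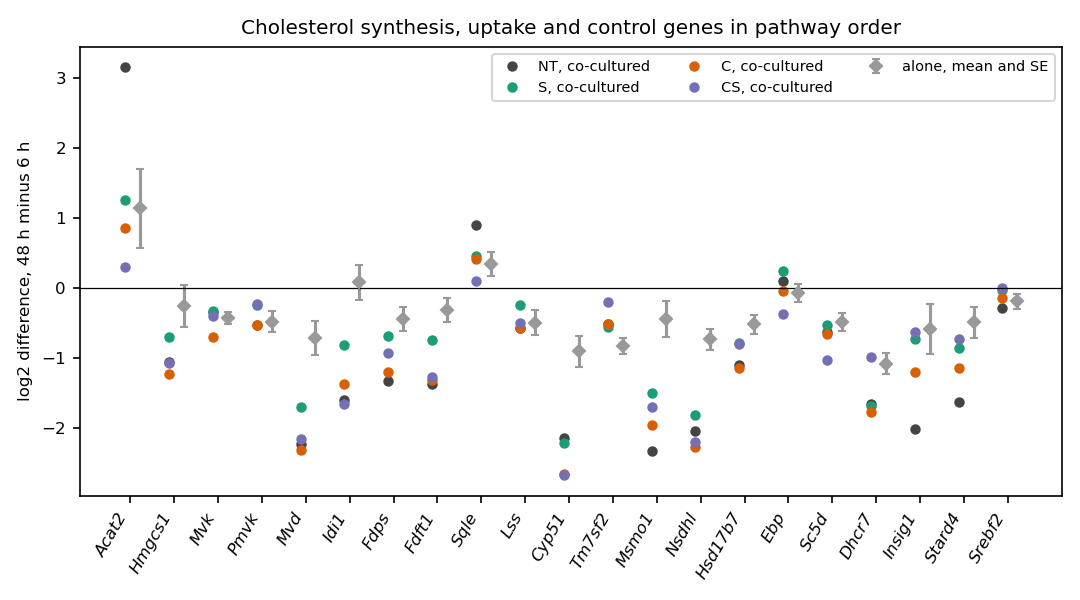
Log2 difference, 48 h minus 6 h, of cholesterol synthesis, uptake and control genes in pathway order (21 of the 29 measured), with 1 point for each treatment pair in co-cultured cells and a grey diamond with SE for the mean in cells grown alone. Most genes of the pathway lie below 0 in co-culture, while Sqle (0.47) and Acat2 (1.39) lie above it.

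Fatty acid genes did not move one way. Of 34 genes for synthesis, uptake and esterification, 10 fell and 7 rose (median -0.14). This split depended on scaling, with 2 falls and 11 rises under median centring. Elovl6, which extends palmitate, was at 12.01, 11.64, 11.59 and 11.61 at 6 h and 9.19, 9.49, 9.55 and 9.48 at 48 h and fell by 2.29 ± 0.14 (SE, n = 4 pairs, adjusted p = 6.84e-05). The carboxylase Acaca (-0.94), malic enzyme Me1 (-1.10) and the desaturase Scd2 (-0.92) fell, while Scd2 rose in cells alone (0.69). Acaca (-0.55) and Scd2 (-0.39) were not called under median centring, nor were Acadm and Hsd17b4 among the oxidation genes below. Fasn was at 9.62, 9.45, 9.45 and 9.41 at 6 h and 5.26, 8.90, 9.30 and 9.25 at 48 h. Its untreated 48 h value was far below all others, the difference of -1.31 ± 0.67 (SE, n = 4 pairs, adjusted p = 0.133) was not called, and without the untreated pair it was -0.29.

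Among the fatty acid genes that rose, Acss2, which makes acetyl-CoA from acetate, was at 11.97, 11.75, 12.10 and 11.93 at 6 h and 13.04, 13.16, 13.64 and 13.84 at 48 h. It rose by 1.48 ± 0.14 (SE, n = 4 pairs, adjusted p = 1.77e-04) while falling in cells alone (-0.70), although a second probe was at 0.62 and not called. The acyl-CoA synthetase Acsl3 rose by 1.59 and by 1.28 in cells alone. Apoe, a lipoprotein that macrophages and adipocytes secrete, lay at 9.97, 9.69, 9.82 and 9.50 at 6 h and 10.92, 11.11, 11.34 and 11.45 at 48 h and rose by 1.46 ± 0.16 (SE, n = 4 pairs, adjusted p = 3.18e-04), against -0.56 in cells alone. Of 25 oxidation genes, 4 rose and 3 fell. Pdk4, the kinase that shuts off pyruvate oxidation and a known glucocorticoid target, was at 9.40, 9.27, 10.79 and 10.47 at 6 h and 11.62, 12.57, 12.73 and 12.70 at 48 h. It rose in all 4 pairs, by 2.42 ± 0.21 (SE, n = 4 pairs, adjusted p = 1.54e-04), and its difference in cells alone was 0.03. The carnitine carrier Slc25a20 rose by 0.88 and Ppargc1a by 0.89, while Acadm (-0.79) and the peroxisomal enzyme Hsd17b4 (-0.73) fell and Cpt1a was at -0.51, not called.

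The adipocyte programme showed no common direction, with 6 of 21 members higher and 3 lower. Pparg, the master regulator of adipogenesis, was at 11.96, 11.92, 11.82 and 11.72 at 6 h and 11.81, 11.85, 12.23 and 12.23 at 48 h. Values at both times overlapped and the difference was 0.17 ± 0.13 (SE, n = 4 pairs, adjusted p = 0.304). Fabp4, the adipocyte fatty acid binding protein, differed by -0.10 (not called) and rose in cells alone (0.89), with the difference between time courses at -0.99 ± 0.10 (SE, adjusted p = 6.72e-04). Cebpb, an early inducer of the programme, rose by 0.95 ± 0.08 (SE, n = 4 pairs, adjusted p = 1.42e-04), and Cebpd was at 0.48. Lipoprotein lipase Lpl fell by 0.70 with the brighter probe, while its second probe was at 0.20, and the call was lost under both other scalings. Gpd1, the glycerol phosphate dehydrogenase, was at 7.58, 7.44, 7.32 and 7.35 at 6 h and 8.74, 9.29, 9.28 and 9.24 at 48 h and rose by 1.71 ± 0.17 (SE, n = 4 pairs, adjusted p = 2.30e-04). Wnt10b, a brake on adipogenesis, lay at 3.02, 5.51, 5.70 and 5.43 at 6 h and 7.30, 7.28, 6.81 and 7.15 at 48 h, a rise of 2.22 ± 0.51 (SE, n = 4 pairs, adjusted p = 0.00811). Of 14 markers of mature adipocytes, 4 were measured. The insulin-responsive glucose transporter Slc2a4 rose by 1.87 (with normexp, 0.57 and not called), and the others were not called.

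Genes of TGF-beta, BMP and CCN signalling rose more often than they fell in co-culture and showed the reverse in cells alone. Of 29 measured, 11 rose and 5 fell (median 0.14), while in cells alone 3 rose and 7 fell (median -0.15). Smad7, the inhibitor of TGF-beta receptors, was at 5.30, 6.71, 7.28 and 7.86 at 6 h and 8.85, 9.01, 9.15 and 9.77 at 48 h. The 48 h arrays were all above the 6 h arrays, and the rise was 2.41 ± 0.28 (SE, n = 4 pairs, adjusted p = 4.22e-04). Ccn2, connective tissue growth factor (chr10:24595442-24598683), lay at 12.18, 12.63, 13.21 and 13.39 at 6 h and 14.77, 13.53, 14.97 and 14.68 at 48 h and rose by 1.64 ± 0.24 (SE, n = 4 pairs, adjusted p = 0.00117). Ccn2 fell by 2.33 ± 0.36 (SE, adjusted p = 0.00525) in cells alone, from a mean of 13.75 to 11.42, and the difference between the time courses was 3.96 ± 0.18 (SE, adjusted p = 3.81e-04). Id4, an inhibitor of bHLH factors, lay at 9.14, 9.17, 9.37 and 9.20 at 6 h and 10.32, 11, 10.91 and 11.17 at 48 h and rose by 1.63 ± 0.15 (SE, n = 4 pairs, adjusted p = 1.65e-04), and it fell in cells alone (-2.14). All 4 pairs went the same way. Smad6 followed the same pattern, with 1.35 ± 0.12 (SE, n = 4 pairs, adjusted p = 1.81e-04) in co-culture and -1.29 in cells alone. Id1 rose by 0.84 and fell alone (-0.59). Id2 rose by 0.83.

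Among the ligands of this group, Inhba, the activin A subunit, was at 12.93, 13.30, 12.66 and 12.41 at 6 h and 15.12, 14.97, 14.24 and 14.36 at 48 h and rose by 1.85 ± 0.11 (SE, n = 4 pairs, adjusted p = 6.84e-05). Tgfb1 itself fell by 0.78 ± 0.14 (SE, n = 4 pairs, adjusted p = 0.00239), a call that median centring ended (-0.66). The receptor gene Tgfbr1 rose by 0.88, whereas the 2 probes of Tgfbr2 went opposite ways at -1.28 and 1.23 and give no direction. Ccn1 was at 0.14, not called, and fell in cells alone (-0.75). Gdf15, a stress cytokine, rose by 0.89. Without the untreated pair the list held 10 rises and 5 falls, and 12 and 1 under median centring.

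Contractile genes, many of them targets of TGF-beta and of serum response factor, fell in 6 of 21 and rose in 4 in co-culture, and fell in 8 and rose in 1 in cells alone. Acta2, smooth muscle actin, was at 14.97, 15.40, 14.95 and 15.01 at 6 h and 14.31, 13.99, 13.61 and 13.35 at 48 h and fell by 1.26 ± 0.15 (SE, n = 4 pairs, adjusted p = 4.33e-04). It fell in cells alone as well (-1.72). The myosin light chain Myl9 fell by 1.6 ± 0.19 (SE, n = 4 pairs, adjusted p = 4.76e-04) in co-culture and also alone (-2.56), and the difference between the time courses was 0.96 ± 0.16 (SE, adjusted p = 0.00359). Tagln, transgelin, rose by 0.61 while falling alone (-1.48), and without the untreated pair its rise of 0.51 was not called. Cnn1 rose by 1.19 but was not called without the serotonin pair (adjusted p = 0.0699) or the filter on dim probes (adjusted p = 0.0772), and the actinins Actn1 (-1.33) and Actn4 (-1.04) fell, although Actn4 and Tagln were not called under median centring. Mylk, myosin light chain kinase, was at least 1.33-fold higher at 6 h.

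Cornified envelope and stefin genes had the highest median of the 33 lists. Small proline-rich proteins are crosslinked into the envelope of skin cells, and stefins inhibit cysteine proteases. Of 20 measured, 10 rose and 1 fell in co-culture, with a median of 0.98, while in cells alone 0 rose and 9 fell (median -0.31). The difference between the time courses was called higher for 13 and lower for 0, and 5 of the 20 members, Cstdc5, Stfa1, Sprr2f, Csta1 and Krt18, were not well above background at a time in cells alone. Cstdc5 lay at 5.98, 6.14, 6.35 and 3.68 at 6 h and 9.88, 9.16, 8.82 and 8.88 at 48 h. It rose by 3.65 ± 0.41 (SE, n = 4 pairs, adjusted p = 3.58e-04), and in cells alone it was well above background on 1 of 4 arrays at 6 h and 0 of 4 at 48 h, so no change is given there. Stfa1, a stefin A gene, was at 3.58, 5.96, 5.38 and 5.57 at 6 h and 5.00, 9.13, 8.73 and 8.66 at 48 h. Its groups overlapped through the dim untreated pair, and it rose by 2.76 ± 0.35 (SE, n = 4 pairs, adjusted p = 5.75e-04). Sprr2f was at 6.65, 7.04, 6.49 and 6.57 at 6 h and 9.28, 9.52, 8.70 and 8.99 at 48 h, a rise of 2.44 ± 0.14 (SE, n = 4 pairs, adjusted p = 6.84e-05). Sprr2i lay at 9.59, 9.32, 9.64 and 9.47 at 6 h and 10.87, 11.14, 11.39 and 11.34 at 48 h and rose by 1.68 ± 0.12 (SE, n = 4 pairs, adjusted p = 9.41e-05), and fell in cells alone (-1.20).

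Further risers were Stfa2 (2.62), Lce3c (2.10), Sprr2h (2.04), Sprr2g (1.98), Cstdc4 (1.72) and Sprr1b (1.05), while Sprr1a fell (-0.86) and Sprr2e (0.19) and Csta3 (0.40) were not called. Members of the Sprr2 family, and of the stefin family, are near copies of each other, so a probe may measure several of them and their values are not independent. The promoter of Sprr2i is shown because it holds an AP-1 site, in capitals, 193 bases before the start.
Sprr2i (chr3:92407741-92407990, + strand): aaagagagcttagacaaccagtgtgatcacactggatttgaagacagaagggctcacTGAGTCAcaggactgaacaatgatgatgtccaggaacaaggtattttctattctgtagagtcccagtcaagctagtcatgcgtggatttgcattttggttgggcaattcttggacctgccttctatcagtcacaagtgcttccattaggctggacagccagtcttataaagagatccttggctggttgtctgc
Such a site was present in 4 of 9 genes of the list that rose and had a promoter, in the 1 that fell and in 3 of 8 that were not called, against 6.75% of all promoters.

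**Figure D4:**
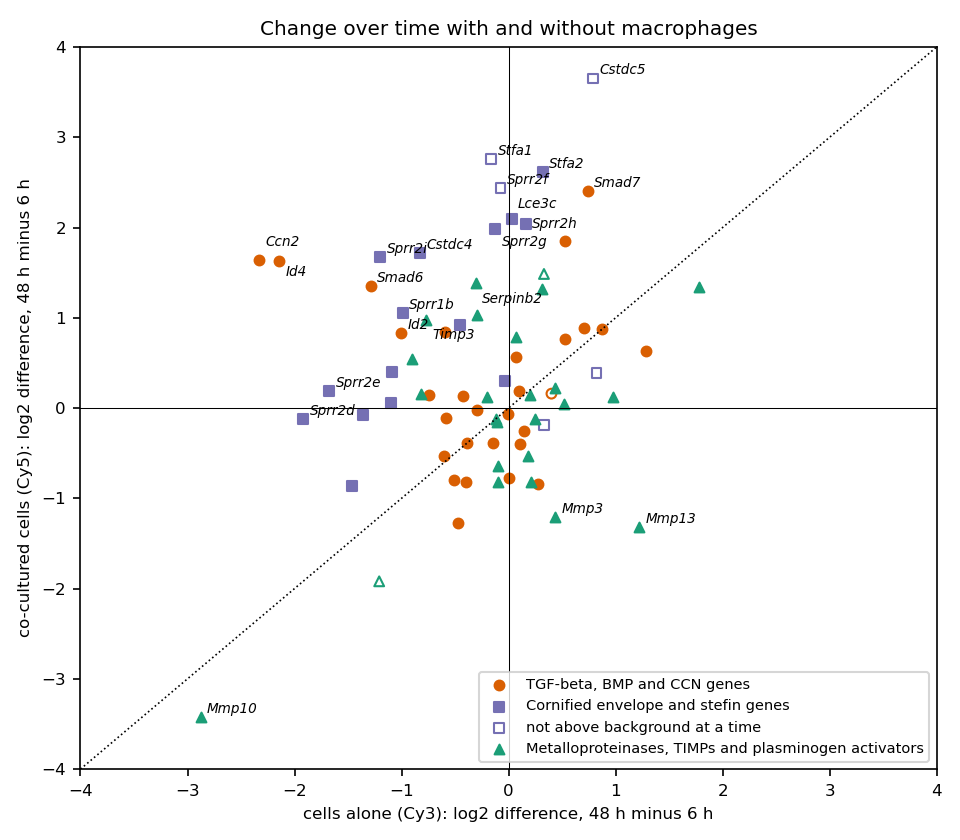
Log2 difference, 48 h minus 6 h, in cells grown alone (horizontal) against co-cultured cells (vertical), with 1 point for each measured member of the TGF-beta, cornified envelope and protease lists and a dotted line of equal change. Open markers, of any list, are members with no array well above background at one time in either culture, whose position is uncertain. Ccn2 (-2.33 alone, 1.64 in co-culture) and Id4 (-2.14 and 1.63) lie far above the line, and Mmp13 (1.22 and -1.32) lies below it.

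Collagen genes were mixed, with 6 of 40 matrix genes higher and 7 lower (15% and 17.5%, near the 17.1% and 18.6% of all genes). Under median centring the counts were 13 and 3. Col1a1 rose by 0.95 and as much in cells alone (1.04). Emilin1, an elastic fibre protein, was at 8.86, 8.94, 8.65 and 8.56 at 6 h and 11.17, 10.62, 10.34 and 10.43 at 48 h, a rise of 1.89 ± 0.13 (SE, n = 4 pairs, adjusted p = 8.45e-05). Fbln1 rose by 1.32 (second probe 0.42, not called), and the basement membrane collagen Col4a1 (-1.19) and the thrombospondin Thbs2 (-1.14) fell. Of 16 processing and crosslinking enzymes, 4 rose and 3 fell, and the lysyl oxidases diverged. Loxl2 lay at 10.13, 9.79, 9.21 and 8.81 at 6 h and 12.17, 10.80, 10.40 and 10.20 at 48 h and rose by 1.41 ± 0.17 (SE, n = 4 pairs, adjusted p = 4.55e-04). Loxl4 (-1.31) and Loxl1 (-1.04) fell, with a second Loxl1 probe at -0.17, and Lox was at -0.20, not called. Median centring ended the call of Loxl1. The prolyl hydroxylase P4ha2 rose by 1.40 and the lysyl hydroxylase Plod1 by 1.18, with a second Plod1 probe at 0.17.

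Cytokines and chemokines showed 7 rises and 6 falls among 26 measured. In cells alone 9 rose and 2 fell (median 0.54), and the difference between the time courses was called lower for 8 and higher for 0. Ccl7, a monocyte attractant, was at 17.13, 17.19, 17.05 and 16.97 at 6 h and 15.97, 15.82, 15.47 and 15.36 at 48 h and fell by 1.43 ± 0.08 (SE, n = 4 pairs, adjusted p = 6.84e-05). Ccl8 (-1.39), the macrophage growth factor Csf1 (-0.93) and the neutrophil attractant Cxcl1 (-0.78) fell too. Without the untreated pair Cxcl1 was at -0.56 and was not called. Il6 was at 13.79, 13.86, 13.25 and 12.98 at 6 h and 13.34, 14.64, 13.24 and 12.78 at 48 h. Its co-culture difference was 0.03 ± 0.18 (SE, n = 4 pairs, adjusted p = 0.907), whereas it rose in cells alone by 1.48, and the difference between time courses was -1.45 ± 0.33 (SE, adjusted p = 0.0107). Cxcl5 behaved likewise, at -0.29 in co-culture (not called) and 1.80 alone. Ccl2 (0.23), Csf2 (-0.03) and Lif (0.39) were not called. Under median centring Ccl7 (-0.60) and Cxcl1 (-0.28) lost their calls, as did Ptgs2 and Tlr2 among the genes below.

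Ccl4, an inflammatory chemokine, lay at 7.05, 5.12, 6.01 and 6.05 at 6 h and 10.36, 9.62, 6.49 and 8.67 at 48 h, and rose by 2.72 ± 0.57 (SE, n = 4 pairs, adjusted p = 0.00523), with the cortisol pair moving least. Il19, of the IL-10 family, rose by 1.59 with one probe and was at 0.47 with the other. The alarmin Il33 rose by 1.41, the granulocyte factor Csf3 by 1.16 and Il1a by 0.88. Il1a was not called without the serotonin pair (0.55), without the treatment block (adjusted p = 0.0953) or without the filter on dim probes (adjusted p = 0.0794). Tslp, an epithelial cytokine, was at least 1.96-fold higher at 6 h. Among 27 effectors and receptors, 8 rose and 7 fell. Il1rl1, the receptor of IL-33, was at 15.51, 15.32, 15.82 and 15.86 at 6 h and 13.47, 13.11, 13.06 and 13.42 at 48 h and fell by 2.36 ± 0.12 (SE, n = 4 pairs, adjusted p = 6.22e-05), although its other probes were at -0.37 and -0.22. The adhesion molecule Vcam1 was at 13.56, 13.53, 12.80 and 13.00 at 6 h and 11.41, 11.99, 11.41 and 11.34 at 48 h. It fell by 1.68 ± 0.13 (SE, n = 4 pairs, adjusted p = 1.06e-04) and was at 0.32 in cells alone. Ptgs2, the inducible cyclooxygenase, fell by 0.92 ± 0.22 (SE, n = 4 pairs, adjusted p = 0.00975). The oncostatin M receptor Osmr (-1.20) and Tlr2 (-0.88) fell, while Tlr2 rose alone (0.75). The receptor subunits Il13ra1 (1.51) and Il6ra (1.38), the antimicrobial peptide gene Camp (1.56), Gch1 (1.09) and Tlr6 (1.09) rose. Nos2 (-0.05) and Acod1 (0.25) were not called.

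NF-kB feedback genes fell in 5 of 18 and rose in 2 (27.8% and 11.1%, against 18.6% and 17.1% of all genes). Under median centring 2 fell and 2 rose, without Traf1 and Tnfaip2. Tnip3, an inhibitor of NF-kB (-1.77), Nfkbiz (-1.10), Traf1 (-0.86) and Tnfaip2 (-0.77) fell. The survival gene Cflar rose by 1.63, with its other probes at 0.16 and 0.31. The core inhibitors Nfkbia (-0.03) and Tnfaip3 (0.38) were not called. Interferon-stimulated genes rose in 9 of 37 and fell in 1 in co-culture (median 0.05). They rose in 16 and fell in 0 in cells alone (median 0.57), and the difference was called lower for 12 and higher for 0. Oasl1 was at 6.66, 6.69, 6.45 and 6.65 at 6 h and 8.89, 9.65, 8.42 and 8.43 at 48 h and rose by 2.24 ± 0.22 (SE, n = 4 pairs, adjusted p = 2.10e-04), close to its rise of 2.07 alone. Rsad2, viperin, rose by 0.63 against 1.99 alone, and without the untreated pair it was at 0.42 and not called. Gbp2 fell by 1.08. Among 16 antigen presentation genes 4 rose, including H2-T23 (1.17), and Erap1 fell (-1.15). Psme2 (1.26) was measured in 2 pairs, and its second probe was at -0.16 and not called.

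Genes of S phase and mitosis rose in 16 of 49 and fell in 3 (median 0.44). Cells alone gave 17 rises and 0 falls (median 0.40). Ccnb1, cyclin B1, was at 12.44, 12.54, 12.18 and 12 at 6 h and 13.12, 13.15, 13.28 and 13.02 at 48 h. It rose by 0.85 ± 0.11 (SE, n = 4 pairs, adjusted p = 5.80e-04), and by 1.06 alone. The difference between the time courses was called lower for 10 members and higher for 4. Among the latter, Uhrf1 (1.55), which maintains DNA methylation at replication, and the origin-licensing factor Cdc6 (1.47) rose in co-culture and were not called alone, and the ribonucleotide reductase subunit Rrm2 rose by 0.87. Ndc80 (1.46) and Ccnb2 (1.39) rose in both cultures. Kif18a, a kinesin of chromosome alignment, went against the list. It was at 10.14, 10.01, 9.96 and 9.96 at 6 h and 7.85, 7.67, 8.16 and 8.01 at 48 h and fell by 2.09 ± 0.13 (SE, n = 4 pairs, adjusted p = 7.00e-05), against 0.26 alone. The kinetochore gene Cenpk fell too (-0.87). Mki67 (-0.12), Mcm2 (0.27) and Mcm5 (-0.10) were not called.

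Of 15 G1 regulators 3 rose and 3 fell. Cyclin D1 (Ccnd1) fell by 1.19 ± 0.08 (SE, n = 4 pairs, adjusted p = 7.94e-05). The inhibitor Cdkn1a, p21, fell by 0.89 ± 0.11 (SE, n = 4 pairs, adjusted p = 5.52e-04) and was at -0.01 alone. Among 22 p53 targets and apoptosis genes 5 fell and 1 rose (22.7% and 4.55%, against 18.6% and 17.1% of all genes). Zmat3 (-1.16), Ccng1 (-0.99), Bid (-0.98) and Bak1 (-0.81) fell, and the difference between time courses was called lower for 8 and higher for 1. Ccnd1, Cdkn1a, Bid, Bak1 and Cenpk were not called under median centring. Histone genes were mixed: 4 of 14 rose and 2 fell. H1f0, the linker histone of resting cells, was at 3.11, 6.14, 6.26 and 6.53 at 6 h and 7.18, 8.0, 7.56 and 7.82 at 48 h and rose by 2.13 ± 0.47 (SE, n = 4 pairs, adjusted p = 0.00666). H1f5 fell by 2.06 ± 0.27 (SE, n = 4 pairs, adjusted p = 6.29e-04). Histone genes are near copies of each other, so their probes may cross-hybridise.

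Hypoxia and glycolysis genes rose in 11 of 35 and fell in 3 (median 0.19). Under median centring 16 rose and 0 fell. Ndrg1 rose by 1.54, and by 1.6 alone. The glucose transporter Slc2a1 was at 15.04, 14.74, 14.94 and 15.25 at 6 h and 15.83, 15.66, 15.72 and 15.77 at 48 h and rose by 0.75 ± 0.08 (SE, n = 4 pairs, adjusted p = 2.49e-04), against -0.17 alone. Vegfa rose by 0.62 and Pfkfb4 by 0.92, although Vegfa was not called with array weights (0.56) or without the pair with both hormones (0.56). A second probe of Vegfa rose by 1.88. Ldha rose by 0.84 with its brightest probe, while its others were at -0.28 and 0.13. Car9 (0.05), Hk2 (0.24) and Bnip3 (0.16) were not called.

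NRF2, glutathione and pentose phosphate genes fell in 9 of 31 and rose in 2 (median -0.24). The direction of this list depended on scaling, with 3 falls and 6 rises under median centring, which also ended the calls of G6pdx, Chac1 and Ddit3. Slc7a11, the cystine importer, was at 12.72, 12.62, 12.76 and 12.32 at 6 h and 10.29, 11.21, 10.77 and 10.35 at 48 h. It fell by 1.95 ± 0.16 (SE, n = 4 pairs, adjusted p = 1.15e-04) and was at -0.26 alone. The pentose phosphate enzymes Pgd (-1.35), G6pdx (-1.0) and Taldo1 (-0.85), which supply NADPH, fell. Txnrd1, thioredoxin reductase, rose by 0.82 ± 0.07 (SE, n = 4 pairs, adjusted p = 1.65e-04) and fell alone (-0.84). Hmox1 was at 0.18 with its brightest probe (not called) and 1.16 with another, and Nqo1 at -0.22, not called. Of 34 ER stress genes 8 fell and 4 rose, among them Sel1l (-1.59), Chac1 (-1.16) and Ddit3 (-0.71), which fell, and Pdia4 (1.27), which rose. Hspa5, the BiP chaperone, was at -0.21 and not called.

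Glucocorticoid-induced genes, compared over time regardless of treatment, rose in 4 of 19 and fell in 1. Per1 was at 13.35, 13.67, 15.12 and 14.72 at 6 h and 15.34, 14.85, 15.58 and 15.65 at 48 h, a rise of 1.14 ± 0.22 (SE, n = 4 pairs, adjusted p = 0.00343). Sgk1 (0.64) and Glul (0.73) rose, but Glul was not called without the treatment block (adjusted p = 0.0685) or without the pair with both hormones (0.54), nor Sgk1 with array weights (0.57). Hsd11b1, which regenerates active glucocorticoid inside cells, lay at 10.41, 10.48, 10.46 and 10.54 at 6 h and 8.67, 8.62, 8.83 and 8.85 at 48 h and fell by 1.73 ± 0.10 (SE, n = 4 pairs, adjusted p = 6.84e-05). Circadian genes rose in 3 of 16 and fell in 0: Nr1d1 by 1.43, Ciart by 1.76 and Per1. Arntl (0.12) and Clock (0.18) were not called.

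The 48 h minus 6 h change was then compared between the arrays with and without cortisol. This test rests on 2 pairs against 2, and it called 6 genes higher with cortisol (0.0472% of 12716 tested) and 1 lower (0.00786%), with 943 genes at an unadjusted p under 0.05. Serpina3m, a serine protease inhibitor of the acute phase (chr12:104387157-104394259), was at 9.69 and 9.63 at 6 h and 6.53 and 7.15 at 48 h without cortisol, and at 10.48 and 10.47 and then 11.03 and 11.30 with it. It was lower at 48 h than at 6 h on both pairs without cortisol and higher on both pairs with it, a difference between the changes of 3.51 ± 0.28 (SE, adjusted p = 0.0291). In cells alone it was at 9.78 and 9.71 at 6 h and 7.23 and 8.03 at 48 h without cortisol, and 10.09 and 10.13 and then 10.85 and 11.06 with it. Its relative Serpina3n gave 2.84 ± 0.23 (SE, adjusted p = 0.0291), though the 2 share sequence. Cdo1, cysteine dioxygenase, was at 8.34 and 8.58 at 6 h and 7.74 and 8.02 at 48 h without cortisol, and at 9.95 and 9.86 and then 11.58 and 11.75 with it, with a cortisol term of 2.34 ± 0.22 (SE, adjusted p = 0.0463). In cells alone Cdo1 was at 8.56 and 9.12 at 6 h and 8.80 and 9.01 at 48 h without cortisol, and 10.01 and 10.04 and then 12.57 and 12.38 with it. For Tnn, tenascin N, the term was 2.30 ± 0.23 (SE, adjusted p = 0.0483). These calls depended on the setting: 0 genes were called when outlier spots were kept or when the probes of a gene were averaged. With the 24 h arrays added 0 genes were called too, but that fit set 48 h against 6 h and 24 h together, a different contrast. For Cdo1, terms under the settings tried ran from 1.89 to 2.47. Clca3a2 (2.14) and the acute phase gene Orm3 (2.11), the other genes called higher, are named after their values were seen. In cells alone, each of the 6 genes called higher was also higher on both 48 h arrays with cortisol than on both without it, and no cortisol term was fitted there.

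The 1 gene called lower, the nucleoside diphosphate kinase Nme2 (-4.64 ± 0.14 (SE, adjusted p = 0.00118)), rested on 1 array: the 48 h array with both hormones lay at 12.48, against 16.66 to 17.05 on the others (cells alone were at 12.77 on that array), and the 6 h cortisol spot was left out as an outlier. With outlier spots kept its term was -2.32 (adjusted p = 0.678). Without the untreated pair, Serpina3m and Nme2 kept their calls and the other 5 did not, at adjusted p of 0.064 to 0.088 and terms of 2.17 to 2.83. The same test for serotonin called 0 genes, with limma's smallest adjusted p at 1 and 270 genes at an unadjusted p under 0.05. Maob, which breaks down amines, rose over time by 1.74 and by 2.45 alone, and of 7 serotonin genes measured it was the only one called in co-culture, a call lost without the filter on dim probes (adjusted p = 0.0687).

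**Figure D5:**
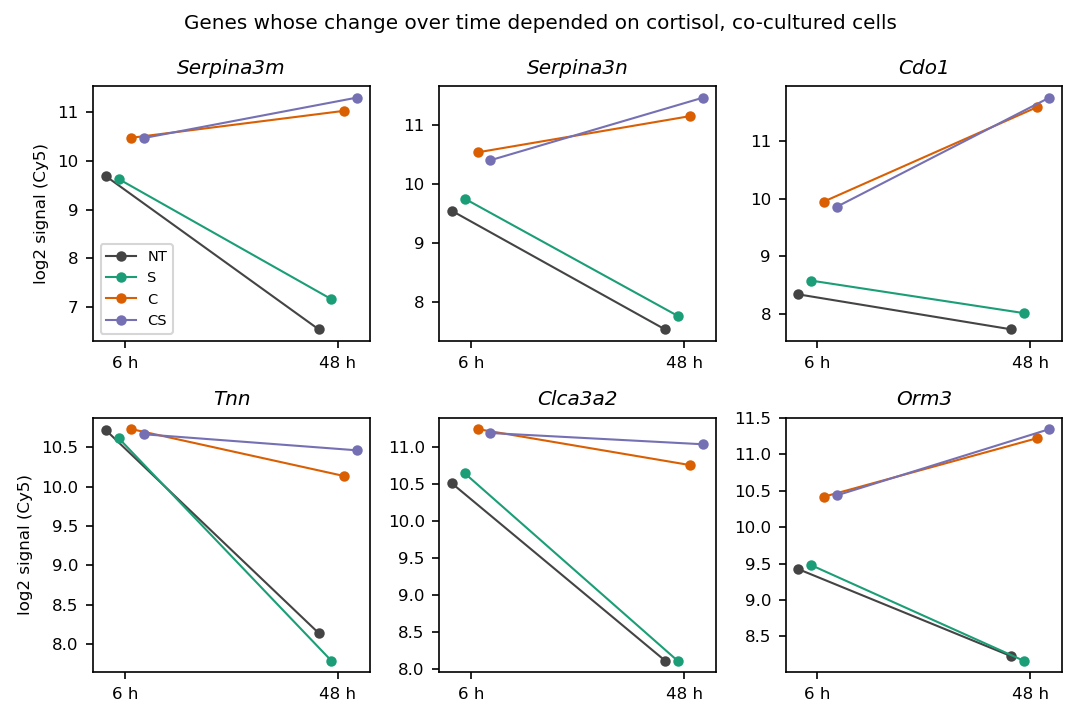
Log2 Cy5 signal at 6 h and 48 h of the 6 genes called higher with cortisol in the test of the change over time in co-cultured cells, with 1 line for each treatment. Serpina3m falls to 6.53 and 7.15 without cortisol and reaches 11.03 and 11.30 with it.

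The genes for which the time course in co-culture differed furthest from that alone were, on the higher side, Ccn2, Id4, Ica1l and Cspg5. Mettl21c and Mansc1 ranked with them, but Mettl21c was not well above background at 48 h in cells alone, nor Mansc1 at 6 h in co-culture or at either time alone, so no value is given. Ica1l was well above background on 2 of 4 arrays at 48 h in cells alone. Ica1l was at 3.36, 5.86, 5.74 and 5.87 at 6 h and 6.49, 6.59, 7.03 and 6.87 at 48 h, with a co-culture difference of 1.54 against -2.06 alone and a difference between them of 3.60 ± 0.15 (SE, adjusted p = 3.81e-04). Cspg5, a proteoglycan of neurons, gave 3.52 ± 0.28 (SE, adjusted p = 4.52e-04). On the lower side, after Fos, stood the peptidase inhibitor Pi15 (-2.90), the GTPase Rab39b (-2.80), Zc3h6 (-2.77), the complement factor H related gene Cfhr2 (-2.66) and the interferon-induced chemokine Cxcl9 (-2.64). Cxcl9 changed by 0.20 in co-culture and by 2.84 alone, and it was well above background on 3 of 4 arrays at 6 h and 1 of 4 at 48 h in Cy5. For Zc3h6, 1 of 3 probes was at 0.04 in co-culture.

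Markers of cell types were set beside these results. Of the macrophage markers, 18 of 30 passed the filter on dim probes, 4 rose and 4 fell (median 0.16). Their summed level ran from 15.26 to 15.63 (log2) at 6 h and from 14.76 to 15.37 at 48 h. Of the 29 with a named probe, 15 were well above background on 8 of 8 arrays, among them Clec4e, Cd14, Mpeg1 and Aif1, while Spi1, Laptm5, Fcgr1, Msr1, Ncf1 and Ccr2 were well above background on 0 of 8 arrays, and the defining markers Ptprc and Adgre1 on 1 of 8. Itgam rose by 1.35, Csf1r by 0.62 with one probe (another was at -0.57) and Cd53 fell by 1.57. Their part in the cytokine results was not tested. The fibroblast markers summed to 18.73 to 19.16 at 6 h and 18.88 to 18.96 at 48 h, and 5 of 23 rose and 5 fell, with Pdgfra, a receptor that marks adipocyte progenitors, at 13.25, 13.25, 13.37 and 13.44 at 6 h and 11.17, 11.57, 12.03 and 12.02 at 48 h and a difference of -1.63 ± 0.13 (SE, n = 4 pairs, adjusted p = 1.15e-04). Thy1 was at 0.15, not called. Ribosomal protein genes rose in 9 of 73 and fell in 7, a split that became 39 and 1 after 75th percentile scaling, and respiratory chain genes rose in 5 of 38 and fell in 5. Lysosomal genes rose in 3 of 29 and fell in 3. Of 13 housekeeping genes 1 rose and 3 fell. Actb was at -0.12, Gapdh at 0.19 and Hprt at 0.22, none of them called, and Actb turned to 0.80 after 75th percentile scaling.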

How the data were processed

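Each Agilent array was scanned in 2 colours, co-cultured cells in Cy5 and cells alone in Cy3, without a dye swap. The intensities used were the deposited processed signals, background-subtracted and dye-normalized within each array by Feature Extraction (10.7.3.1 in the headers but 10.5.1.1 in the submitters' processing notes). Alternatives also used deposited log10 ratios and unprocessed intensities. Signals without flagged outlier spots were log2-transformed and quantile normalized (limma 3.58.1, R 4.3.3). Only the alternative before dye normalization was floored, at 1 unit. Of 39429 probes, 27508 were named through RefSeq accessions (GRCm38.p6). The brightest probe stood for a gene, well above background in Cy5 on at least 4 of 8 arrays and in 2 or more pairs, which left 12724 of 20886 genes. A gene not well above background on any array of a time got only a bound, from the lowest signal among probes well above background there. Such a gene passed the filter through the other time alone, so no p-value is given with its bound. Where it was called, it stays in the counts of calls.

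lmFit and eBayes (trend) fitted time with treatment as a block (3 residual degrees of freedom) to Cy5, to Cy3, to Cy5 minus Cy3, and with a time by hormone term to Cy5. Members and the 33 lists were chosen with earlier results of these data known. Named genes were the 12 highest and 12 lowest changes that went one way in 4 pairs (6 and 6 for the difference, up to 4 and 4 per hormone; no clone names, predicted genes or olfactory receptors) and, of each list, its key members and up to 4 more. Other members were chosen after their values were seen. Alternatives were other scalings, background corrections (normexp on median signals), filters, probe rules, array weights, thresholds, no block, the 24 h arrays, and leaving out each treatment's pair. Some of these genes are left out of the text. Fits were tested on simulated data.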

Additional observations from a re-analysis of the deposited data

Results flagged for a closer look

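Among the per-array values given above, 13 of 114 groups of 4 arrays held 1 array set well apart from the other 3 by Dixon's criterion, and chance alone flags about 1 in 20 groups. Of these 13 arrays, 8 were untreated, 4 at 6 h and 4 at 48 h. At 6 h the untreated array stood apart for Elovl6 (12.01), H1f0 (3.11), Ica1l (3.36) and Wnt10b (3.02), all on the log2 scale. At 48 h it stood apart for Fasn (5.26), Gpd1 (8.74), Pdk4 (11.62) and Stfa1 (5.00). The serotonin array did so for Acta2 at 6 h (15.40) and for Tmprss11f (8.96) and Vcam1 (11.99) at 48 h. The cortisol array at 6 h stood apart for Oasl1 (6.45) and the array with both hormones at 6 h for Cstdc5 (3.68).

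The change over time differed between co-cultured cells and cells alone for the genes named by that rule, of which Mettl21c and Mansc1 have no value because a group lay in the background. It was higher in co-culture for Ccn2 (3.96), Id4 (3.77), Ica1l (3.60) and Cspg5 (3.52). It was lower for Fos (-3.92), Pi15 (-2.90), Rab39b (-2.80), Zc3h6 (-2.77), Cfhr2 (-2.66) and Cxcl9 (-2.64). Between arrays with and without cortisol, it differed for Serpina3m (3.51), Serpina3n (2.84), Cdo1 (2.34), Tnn (2.30), Clca3a2 (2.14), Orm3 (2.11) and Nme2 (-4.64).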

How the results depend on the processing

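The 2182 rises and 2362 falls stayed within 1.5 times under each alternative except median centring, which left 1219 falls, and other thresholds: adjusted p alone gave 3385 and 3868, and 2-fold gave 1064 and 1011. Leaving out each treatment gave 1915 to 2188 rises and 2078 to 2638 falls, and a fit without the treatment block 2151 and 2366. The 2032 and 2147 calls of the difference between time courses ran from 1661 to 2246 and from 1669 to 2195. The cortisol count, 7, was 34 under median centring, 1 with normexp and 1 before dye normalization (an alternative added after seeing the data). It was 0 with outlier spots kept and with the mean of the probes of a gene. With all 12 arrays it was 0 as well, but there the term set 48 h against 6 h and 24 h together. It ran from 5 without the untreated pair to 339 without the serotonin pair, in fits with 1 residual degree of freedom. Serotonin called 19 genes under median centring and 2 to 17 with a treatment left out, against 0. Signs turned for 3 named genes that were not called, at 0.79 (H2-K1), 0.66 (Rps6) and 0.80 (Actb) under 75th percentile scaling and 0.90, 0.76 and 0.91 under median centring. The cause was not tested. Rsad2, Tagln, Csf1r, Mylk and Tnfaip8l1 each lost their call under 5 or 6 alternatives. Low signal over background limits the dimmest genes.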
